A study of Danio rerio with 4 samples.

Results

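Hairy-related genes (her and hes), hey genes and Id genes encode helix-loop-helix repressors. They were followed here in progenitors of the injured zebrafish retina and in the uninjured Muller glia from which such progenitors arise. The genes were taken by name: every probe whose gene name in the array file, or whose current symbol by RefSeq accession, was her, hes, hey or id followed by a digit, with heyl added. The rule found 24 probes for 18 of the 8753 named genes on the array, namely 11 hairy-related, 3 hey and 4 Id genes. The label fits these names, and the rule itself uses names and accessions, not signals. Older names in the file were replaced by current ones, so that id6 is id1, id2 is id2a, id2l is id2b and her4 is her4.5.

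Progenitors were GFP-positive cells sorted 4 days after injury of the retina with a 30-gauge needle (2 arrays, from fish aged 7 and 8 months). These fish carried the tuba1a:gfp transgene, which is listed with the number 1016. Muller glia were GFP-positive cells sorted from uninjured retinas of gfap:gfp fish aged 7 months (2 arrays). In the first line GFP is driven by the tuba1a promoter, in the second by the gfap promoter, so transgenic line and injury cannot be told apart, and each population is defined by what its promoter marks. RNA was hybridised to 4 single-colour oligonucleotide arrays. The labels do not say that the arrays of a group came from separate fish, so the p-values reflect how far these arrays differ, and that spread may be technical.

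Hairy-related proteins recruit co-repressors of the Groucho family, and both hairy-related and Hey proteins bind DNA through a basic helix-loop-helix domain. Many of their genes are switched on by Notch signalling, which acts through the DNA-binding protein Rbpj, and their products repress proneural genes. Id proteins have a helix-loop-helix but no basic region. They sequester the E proteins with which proneural factors pair, and their genes are known targets of BMP signalling through Smads. In the retina both families are known for keeping progenitors and glia from neuronal differentiation.

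Values are log2 signals minus that of the array's 75th percentile, and a difference is progenitors minus glia on that scale. That percentile was 4816 and 4899 on the progenitor arrays and 4289 and 4455 on the glia arrays, and 71.7% to 82.0% of spots were well above background. Log2 signals correlated at r = 0.9983 between the progenitor arrays and 0.9986 between the glia arrays, against 0.9688 to 0.9701 between groups. All 4 arrays shared 1 slide and 1 scan. A gene was called changed when limma, fitted over all 16596 probes tested, gave a Benjamini-Hochberg adjusted p below 0.05. The scaling matters for small differences: 40.5% of called genes were higher in progenitors, against 23.2% with each array scaled on its median and 97.7% with arrays scaled on their spike-in controls. The median difference of all genes was -0.11, against -0.34 and 1.01 under those scalings.

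Of 12 genes with a probe well above background, 8 were higher, 3 were lower and 1 did not pass (limma, adjusted p below 0.05). With each array scaled on its median, 6 were higher and 4 lower, beside 1294 higher and 4283 lower of all 7081 genes. On the whole array 67.9% of 7081 genes were called, 27.5% as higher and 40.4% as lower in progenitors. Array values of the groups did not overlap for 11 of the 12 genes, against 88.0% of all genes. All 12 were well above background on all 4 arrays, so none entered through one group alone. Their median difference was 0.44, with a range from -0.64 for her8a to 1.86 for her9. At least 2-fold increases were called for 3 genes, her9, her12 and her6, where 7.70% of all genes were that much higher. Of the 16 probes tested 15 were called, against 65.6% of all probes, and probes of the same gene were called in the same direction.

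**Figure D1:**
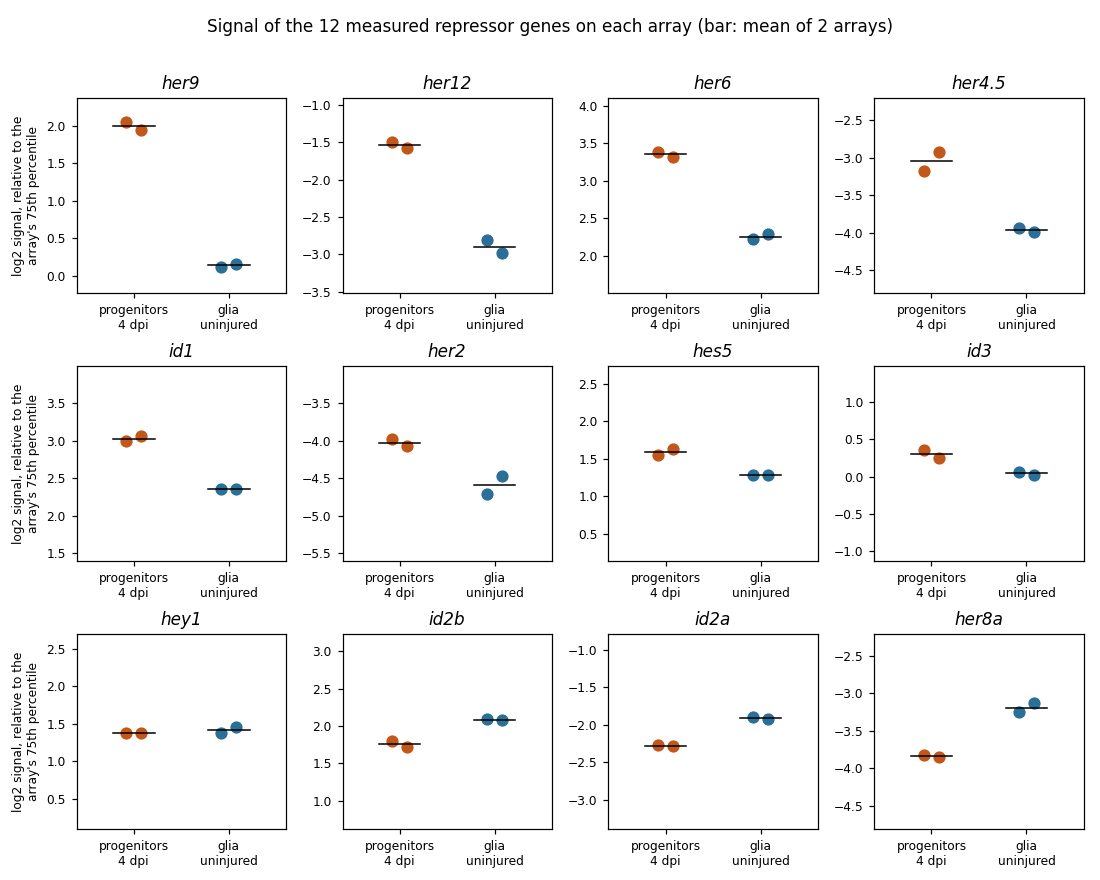
Log2 signal of each of the 12 measured genes on each array, relative to the array's 75th percentile, with progenitors on the left and glia on the right of each panel and a bar at the mean of the 2 arrays. All panels span the same range on the log2 axis, and the genes run from the largest increase (her9, 1.86) to the largest decrease (her8a, -0.64).

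The largest difference in the family was that of her9, a gene related to mammalian Hes1. Its brighter probe (danRer2 chromosome 23, 26182206 to 26182265, minus strand) stood at 2.06 and 1.95 on the progenitor arrays, against 0.12 and 0.16 on the glia arrays. Both progenitor arrays lay far above both glia arrays, by 1.86 ± 0.06 (standard error, limma, adjusted p = 0.0002), or 3.64-fold. The other her9 probe, which starts 1011 bases away, gave 1.82 ± 0.05, or 3.54-fold (adjusted p = 0.0001). Only 3.06% of all genes tested had a larger difference than her9.

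Its relative her6, the zebrafish counterpart of Hes1, also rose. The brighter probe (chromosome 6, 18939019 to 18939078, minus strand) read 3.39 and 3.32 on the progenitor arrays and 2.22 and 2.28 on the glia arrays. The groups were separate, and the difference was 1.102 ± 0.053 (limma, adjusted p = 0.0005), a 2.15-fold increase. The other her6 probe gave 1.09 ± 0.05, but it shares 41 bases with the first and is close to a repeat of the same measurement.

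Genes of the Hes5 type rose by different amounts. The gene her12 stood at -1.49 and -1.58 on the progenitor arrays and at -2.80 and -2.98 on the glia arrays. Under the reported scaling it was the second largest increase of the family, at 1.36 ± 0.08 (limma, adjusted p = 0.0008), or 2.57-fold. The her4.5 probe (chromosome 23, 24296798 to 24296857, minus strand) read -3.17 and -2.92 in progenitors, against -3.94 and -3.99 in glia. Its increase was 0.92 ± 0.10, or 1.89-fold (limma, adjusted p = 0.003), and its duplicate spots differed by up to 0.31 on 1 array, the largest such gap among the tested probes of the family. In the GRCz12tu gene table her12 and 5 her4 copies, her4.1 to her4.5, are consecutive protein-coding genes on chromosome 23, so signal on the her4.5 probe may come from more than 1 copy.

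A second run of neighbours gave smaller differences. In the same gene table her2 is followed by her15.1 and her15.2 on chromosome 11, and hes5 is an older name of both her15 genes. The her2 probe stood at -3.98 and -4.07 on the progenitor arrays, against -4.71 and -4.46 on the glia arrays. This increase, 0.56 ± 0.10 or 1.48-fold (limma, adjusted p = 0.01), lost its call without progenitor replicate 1 (0.52). The brightest hes5 probe (chromosome 11, 37191270 to 37191329, plus strand) read 1.56 and 1.63 in progenitors and 1.28 on both glia arrays. The groups did not overlap, but the increase was small, at 0.32 ± 0.05 or 1.24-fold (limma, adjusted p = 0.008). A further hes5 probe 617 bases upstream gave 0.44 ± 0.05 or 1.35-fold. The other hes5 probe lies between them, 108 bases from the brightest, and was at background on all 4 arrays. The files do not separate her15.1 from her15.2 on these probes.

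Only her8a went the other way among hairy-related genes. Its measurable probe (chromosome 7, 19811796 to 19811855, plus strand) read -3.82 and -3.84 on the progenitor arrays, against -3.25 and -3.13 on the glia arrays. The groups were separate, and the difference of -0.64 ± 0.06 corresponds to a 1.56-fold lower signal in progenitors (limma, adjusted p = 0.002). Its other probe, which starts 1734 bases away, was at background on all 4 arrays. Spike-in scaling turned the her8a difference to 0.49.

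Of the hey genes only hey1 was measurable, and it did not pass. It read 1.38 on both progenitor arrays and 1.37 and 1.45 on the glia arrays, so that the groups overlapped. The difference was -0.03 ± 0.05, with a 95% interval from -0.17 to 0.10 (limma, adjusted p = 0.58). Under median scaling it passed at -0.26, and under spike-in scaling at 1.09.

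The Id genes split into a rising and a falling pair. Signals of id1, an inhibitor of E proteins and a known BMP target, were 3.00 and 3.06 on the progenitor arrays and 2.36 on both glia arrays. Its increase was 0.67 ± 0.05, or 1.59-fold (limma, adjusted p = 0.001). The only id1 probe lies on danRer2 chromosome 12, while the GRCz12tu gene table has id1 on chromosome 11. The id3 values were 0.35 and 0.25 in progenitors, against 0.06 and 0.03 in glia. The groups did not overlap, yet the id3 increase of 0.26 ± 0.06, or 1.20-fold (limma, adjusted p = 0.02), lost its call without glia replicate 1 (0.28), glia replicate 2 (0.24) or progenitor replicate 1 (0.20). It also lost it under median scaling, at 0.04.

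The id2 copies were lower in progenitors relative to the 75th percentile. For id2a the arrays read -2.27 and -2.28 in progenitors, against -1.89 and -1.92 in glia, a difference of -0.38 ± 0.04 (limma, adjusted p = 0.003). For the brighter id2b probe (chromosome 20, 37850160 to 37850220, plus strand) they read 1.80 and 1.72 in progenitors, against 2.09 and 2.08 in glia. The id2b difference was -0.32 ± 0.05 (limma, adjusted p = 0.008), and the second id2b probe, which starts 135 bases away, gave -0.43 ± 0.04. Spike-in scaling turned id2a to 0.75 and id2b to 0.80. The only id2a probe lies on danRer2 chromosome 20, while the GRCz12tu gene table has id2a on chromosome 17.

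**Figure D2:**
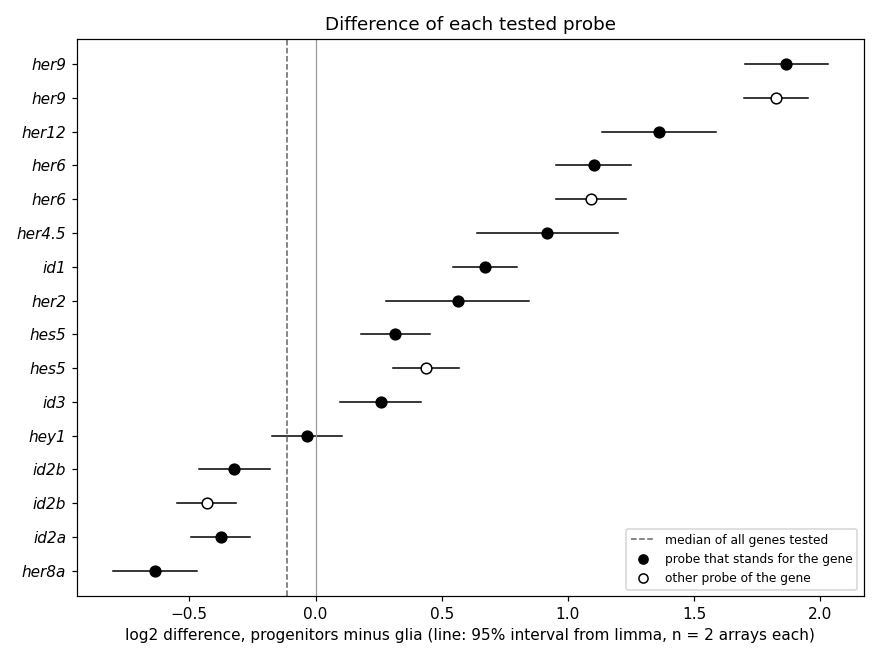
Log2 difference, progenitors minus glia, of the 16 tested probes with 95% intervals from limma (n = 2 arrays each). Filled points are the probes that stand for a gene and open points its other probes, and the dashed line marks the median of all genes (-0.11). Both her9 probes lie near 1.8 and her8a is lowest, at -0.64.

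Changes of one gene relative to another on the same array do not depend on how arrays are scaled by a constant. Values were known when these pairs were picked. The signal of id1 relative to id2a was higher in progenitors by 1.05 on the log2 scale, from 1.00 to 1.09 over the 4 pairs of a progenitor and a glia array. Relative to id2b it was higher by 0.99, from 0.92 to 1.07. The signal of id3 was higher by 0.63 relative to id2a and by 0.58 relative to id2b. Among hairy-related genes, her9 was higher by 2.50 and her6 by 1.74 relative to her8a, and her6 was higher by 1.14 relative to hey1. With 2 arrays a group, the exact two-sided permutation test cannot go below p = 0.33, and each of these 7 pairs gave that value.

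From the largest increase to the largest decrease the order was her9, her12, her6, her4.5, id1, her2, hes5, id3, hey1, id2b, id2a and her8a. Neighbours in this order were set against each other in the same way. The order came from these same differences, so every change of gap was positive by construction. The gaps overlapped between groups, and so were not told apart, for her6 and her4.5, for id1 and her2, and for hes5 and id3. For the other 8 neighbours they did not overlap, although for id2b and id2a the change of the gap was only 0.05. None of these 11 comparisons could pass an exact permutation test. How often the gaps of other gene pairs overlap was not determined, so a lack of overlap does not establish the order.

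The other 6 genes were not measured above background. They were her1, a gene of the segmentation clock, her3, the midbrain-hindbrain boundary genes her5 and her11, hey2, which is known for its role in arteries, and heyl. With the dim her8a and hes5 probes they make 8 probes with signals from 2.65 to 22.8. Single glia arrays had her3 and hey2 well above background, at signals of 18.9 and 22.8, and no progenitor array did. At this sensitivity no difference can be given for these 6 genes.

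**Figure D3:**
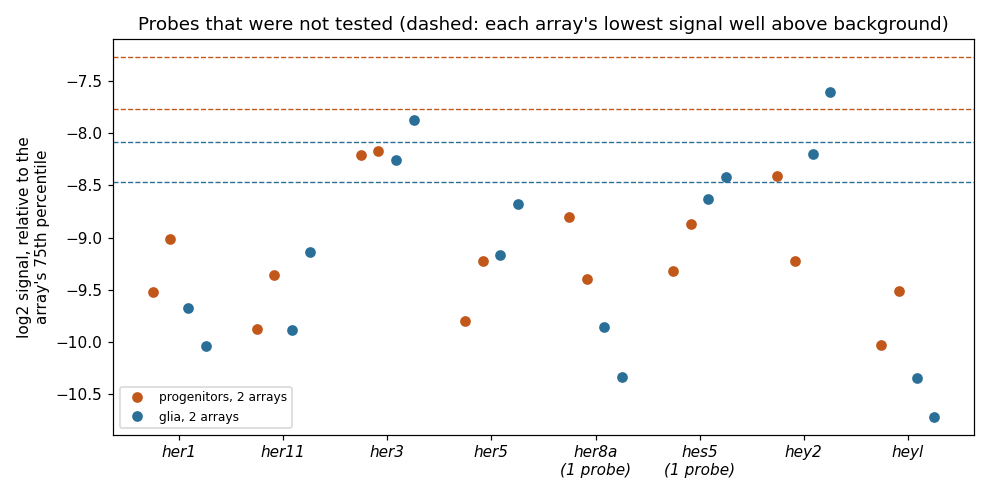
Log2 signal of the 8 untested probes on each array, relative to the array's 75th percentile, progenitors in orange and glia in blue. Dashed lines mark the lowest signal that was well above background on each array, and no progenitor value reaches its own array's line.

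Genes around these repressors were read from lists that were chosen with earlier results of these data known. Among 23 measurable Notch pathway genes progenitors had 9 with higher and 4 with lower signal, and the median difference was 0.08 (limma, adjusted p below 0.05). The 4 lower include dld, whose probe is named dldh in the array file and may measure a different gene. Among 20 BMP pathway genes 5 had higher and 10 lower signal, and the median was -0.11, as for all genes. Beside the counts of both pathways, 27.5% of all genes were higher and 40.4% lower. The BMP antagonist gene nog2, called lower, was not well above background in progenitors and passed the filter on dim probes through glia alone. Among the 18 BMP genes well above background on all 4 arrays, 5 were higher and 9 lower. Median scaling turned the Notch median to -0.14, and spike-in scaling gave medians of 1.20 and 1.01 for the Notch and BMP lists.

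In the Notch pathway the delta-type ligand genes moved most. The dlb signal was 11.6-fold and the dla signal 8.12-fold higher in progenitors, by 3.54 ± 0.08 and 3.02 ± 0.10 (limma, adjusted p = 0.0001 and 0.0002). The dlc signal was 5.53-fold higher. The probe listed as dld was lower (-0.37 ± 0.04, and 0.75 with spike-in scaling). In the array file that probe is named dldh, so it may not measure the delta ligand gene. The brightest of 3 probes of the receptor gene notch1a rose by 1.24 ± 0.08, while another was lower, at -0.30, and the third did not pass, at -0.22. Those other probes overlap on danRer2 chromosome 12, starting at 3806684 and 3806676, while the brightest lies on chromosome 11. They may not measure the same gene. With the mean of its probes notch1a did not pass, at 0.24. The receptor gene notch1b was not well above background in glia and passed the filter on dim probes through progenitors alone. Against the bound set for glia its progenitor mean was 3.20-fold higher. This makes no allowance for the spread of the progenitor arrays, which had signals of 62.6 and 43.6. Normexp background correction gave -0.34 for notch1b. Among the 22 Notch genes well above background on all 4 arrays, 8 were higher and 4 lower, with dld counted as lower.

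The nuclear partner and the feedback genes of the pathway also rose. The gene rbpja, which encodes Rbpj, stood at -1.58 and -1.65 on the progenitor arrays and at -3.17 and -2.92 on the glia arrays. Its increase was 1.43 ± 0.10 (limma, adjusted p = 0.001). The dimmer rbpja probes gave 1.41 ± 0.10 and 0.96 ± 0.24. The Notch feedback genes nrarpa and nrarpb rose by 1.30 ± 0.05 and 1.00 ± 0.11. The glycosyltransferase gene mfng, whose product modifies Notch, rose by 1.20 ± 0.05. The calls of dla (1.35), dlc (1.60), notch1a (0.91), rbpja (1.17) and nrarpb (0.17) ended with normexp.

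Of 5 co-repressor genes of the Groucho and CtBP type tested, 2 were lower in progenitors and 3 did not pass (limma), a share like the 40.4% of all genes that were lower. The Groucho gene tle2a was not well above background in progenitors, where it was at least 1.09-fold lower, and it passed the filter on dim probes through glia alone. Its call ended with normexp (-0.99) and with the authors' deposited value table (-0.18). Low values of that table were raised to a floor before the fit, so the smaller difference is not a property of the table alone. The brightest of 3 probes of the CtBP gene ctbp2a was lower by -0.37 ± 0.04 and stood at 0.76 with spike-in scaling. It lies on danRer2 chromosome 1, while the other ctbp2a probes lie on chromosome 17 and gave -0.21 and -0.47. These probes may not measure the same gene. The 1 E protein gene tested, tcf12, did not pass: it read 3.48 and 3.41 on the progenitor arrays and 3.49 and 3.54 on the glia arrays (-0.07 ± 0.05, limma, adjusted p = 0.30), while it was lower under median scaling (-0.29, adjusted p = 0.01) and changed sign with quantile and spike-in scaling.

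Hairy-related and Id proteins oppose genes of the proneural type. On a list of proneural and other neural basic helix-loop-helix genes, 4 of 8 tested were higher in progenitors and 3 lower (limma). Among all genes 27.5% were higher and 40.4% lower. The retinal ganglion cell determinant atoh7 rose by 1.75 ± 0.07 and olig2 by 1.66 ± 0.07 (limma, adjusted p = 0.0004 for each). The neuronal differentiation gene neurod2 was lower by -0.53 ± 0.04, and stood at 0.60 with spike-in scaling.

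In the BMP pathway the genes of the BMP Smads, smad1, smad5 and smad9, rose by 0.55 ± 0.05, 0.85 ± 0.04 and 0.91 ± 0.06 (limma, adjusted p = 0.002, 0.0006 and 0.0009). The dimmer smad1 probes gave 0.26 ± 0.07 and 0.62 ± 0.06. Of 5 receptor genes tested 4 were lower, led by acvr2ba at -0.98 ± 0.04, and 1 did not pass, beside 40.4% of all genes lower. The dimmer acvr2ba probe gave -1.31 ± 0.14. It lies on the plus strand of danRer2 chromosome 8, while the brighter acvr2ba probe lies on the minus strand. These probes may not measure the same transcript. The ligand gene bmp5 was lower by -0.82 ± 0.05. Both receptor-like inhibitor genes were called, bambia higher by 0.49 ± 0.06 and bambib lower by -0.42 ± 0.09. The dimmer bambib probe gave -0.26 ± 0.06. With spike-in scaling acvr2ba, bmp5 and bambib stood at 0.14, 0.31 and 0.70. The calls of smad9 (0.34), bmp5 (-0.92) and bambib (-0.49) ended with normexp, and that of bambib also without glia replicate 1 (-0.43) or 2 (-0.42).

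**Figure D4:**
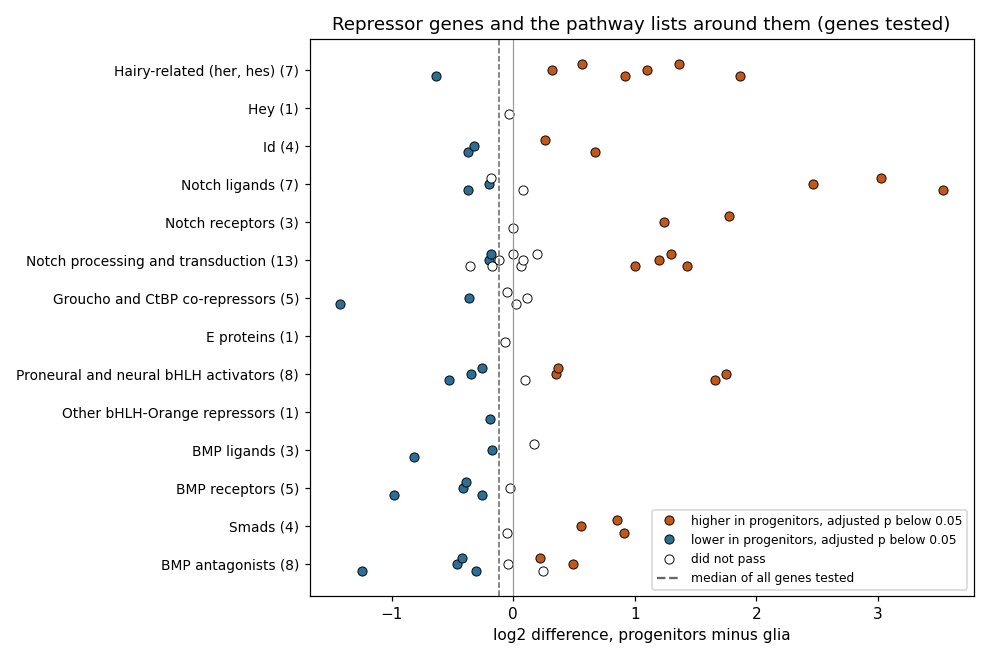
Log2 difference, progenitors minus glia, of each tested gene by family or list, with the number of genes in brackets and the dashed line at the median of all genes (-0.11). Hairy-related genes lie between -0.64 and 1.86 with 1 below 0, Id genes lie on both sides of 0, and dlb lies farthest to the right, at 3.54.

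Markers of other cells moved between the groups as well, and their part in the results above was not tested. In bulk samples fewer cells of a type and less RNA per cell cannot be told apart. Beside the marker counts, 27.5% of all genes were called higher and 40.4% lower in progenitors. Muller glia markers were well above background on all arrays for 7 of 7 genes tested, and 5 were higher and 1 lower in progenitors. Summed over those genes their linear scaled signal was 216 to 223 in progenitors and 177 to 180 in glia. Such a linear sum is carried by the brightest genes. Among them apoeb alone stood at log2 values of 6.73 and 6.81 in progenitors, against 6.27 and 6.29 in glia. Leukocyte markers had 9 of 11 genes higher and 1 lower, with sums of 36.4 to 38.8 in progenitors and 16.1 in glia. Vascular markers had 4 of 6 higher and 2 lower (2.21 to 2.25 in progenitors, 1.28 to 1.32 in glia). Cone markers had 12 of 12 lower (348 to 351 in progenitors, 614 to 633 in glia), rod markers 3 of 4 lower and 1 higher (105 to 110 in progenitors, 123 to 125 in glia), and inner retinal neuron markers 6 of 9 lower and 1 higher (131 to 134 in progenitors, 165 to 166 in glia). Surface epithelium markers had 6 of 7 lower and 1 higher (13.4 to 13.6 in progenitors, 23.7 to 23.8 in glia, with a median difference of -4.02), and erythrocyte markers 6 of 7 lower (78.0 to 79.3 in progenitors, 105 to 106 in glia, with a median difference of -1.52). Median differences of the other marker lists were 0.54 for Muller glia, 1.75 for leukocytes, 0.74 for vessels, -0.91 for cones, -0.30 for rods and -0.38 for inner retinal neurons. Of all these marker genes tested, only the globin gene hbba2 was well above background on neither progenitor array. Of the 6 vascular genes tested, 5 were well above background on all 4 arrays. The markers rho and gnat1 (rods), ptprc (leukocytes), kdrl (vessels) and epcam (epithelium) were not used here.

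Genes most like her6, her8a and id1 were ranked by the distance between profiles over the 4 arrays, each centred on its own mean. With 2 groups such a profile holds little beyond the difference between them. For her6 they were casp8, caspa and pim2, at distances of 0.03 to 0.04 on the log2 scale and with 53 genes within 0.1. For her8a they were slc39a13, cog6 and hexd, at 0.03 to 0.04, with 117 genes within 0.1. For id1 they were papss2b, rps20 and pacc1, at 0.01 to 0.03, with 120 genes within 0.1.

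The calls of her9, her12, her6 and id1 held under all 14 alternatives run, and those of the other genes did not. Normexp background correction lowered the calls among all genes from 1949 higher and 2862 lower to 823 and 1151. With normexp the calls of her4.5 (0.50), her2 (0.03), hes5 (0.33), id3 (0.25), her8a (-0.73), id2a (-0.41) and id2b (-0.30) ended. Median scaling also ended that of hes5 (0.09). Leaving out progenitor replicate 2, the array from the older fish, changed no call among the 12 genes.

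**Figure D5:**
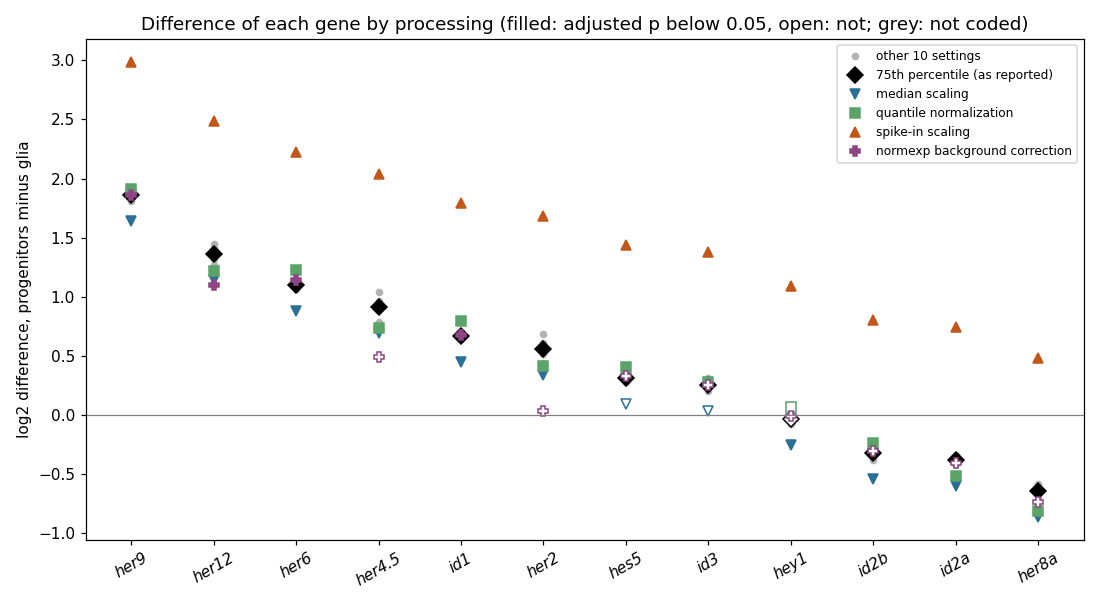
Log2 difference, progenitors minus glia, of each of the 12 genes under the reported scaling and the 14 alternatives. Filled symbols had an adjusted p below 0.05 and open ones did not, while the grey points are the settings not coded. Spike-in scaling moves every gene up by the same amount, so that her8a, id2a and id2b lie above 0 only there, and the order of the genes is kept.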

How the data were processed

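Array signals of 4 samples were used. The deposited scanner files (array design 015064) hold linear intensity. Their headers give Feature Extraction 9.5.3.1, and version 9.1 stands in the submitters' processing notes. Per the file headers, background subtraction and detrending of the processed intensity were done on each array separately. A deposited value table, also intensity, equalled the background-subtracted signal of 1 spot of each probe for 100% of values (relative tolerance 0.001), so it is linear, uncentred and not scaled between arrays, with medians of 467 and 488 on progenitor arrays and 356 and 360 on glia arrays. For the fit on that table, values below an array's lowest background-subtracted signal well above background were raised to that signal.

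Control spots (1417) and outlier spots (0 and 3 on progenitor arrays, 11 and 23 on glia arrays) were left out, log2 signals were centred on the 75th percentile of their array, and both spots of a probe were averaged (2 a probe). Probes well above background in both spots on both arrays of a group were tested (16596 of 21495) with limma 3.58.1 in R 4.3.3, without a trend (3.93 degrees of freedom in total), adjusted by Benjamini-Hochberg over them. The probe with the highest mean stood for its gene. Arrays limit the precision by their number. Spike-in scaling used the median of the E1A control spots. Bounds set the brighter group's mean against the lowest signal well above background or the probe's own signal, whichever was higher, averaged over the dim group's arrays. They make no allowance for the spread between arrays. The fit was also run on simulated data, and the outcome is not reported here.

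Probes were named through the GRCz12tu gene table: 7323 by accession, 620 by current symbol, 2352 by older name, 1617 by the file's name, and 9583 had none. Coordinates are danRer2, from the files, counted from 1. No genome was used. The members and lists, and which list genes are named, were chosen with earlier results of these data known. The rule names every member, any list gene, and the 3 genes nearest in profile to her6, her8a and id1. Differences between pairs of members were added after the data were seen. Promoter motifs were not analysed here, and some pathway genes are not reported here.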

Additional observations from a re-analysis of the deposited data

How the results depend on the processing

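Over 12 genes and 14 alternatives, 148 values kept their direction and side of the threshold, 13 lost a call, 1 gained one and 6 changed sign. The repressor genes called were 8 higher and 3 lower; with median scaling 6 and 4, with normexp 4 and 0 (6 and 3 at an unadjusted p below 0.05) and with spike-in scaling 12 and 0 (12 and 0 unadjusted), all by limma. Among all genes 1949 were higher and 2862 lower; median scaling gave 1294 and 4283, spike-in scaling 6624 and 157, and normexp 823 and 1151. Signs changed with spike-in scaling for her8a (0.49), hey1 (1.09), id2a (0.75), id2b (0.80), acvr2ba (0.14), bambib (0.70), bmp5 (0.31), ctbp2a (0.76), dld (0.75), neurod2 (0.60) and tcf12 (1.06); with quantile normalization for hey1 (0.069) and tcf12 (0.0795); and with normexp for notch1b (-0.34). Spike-in scaling adds the same amount to each difference; the cause of the other changes was not tested. Leaving out an array put hey1 between -0.074 and 0.0067, gave 6 to 8 higher repressor genes and left 3 lower. The replicate numbers share only a number (deviations correlated at 0.06 between groups); with the replicate block the repressor calls were 8 and 3, and 1797 and 2632 genes were called. Notch calls (9 and 4) were 23 and 0 with spike-in scaling, 9 and 9 with median scaling and 3 and 1 with normexp; BMP calls (5 and 10) were 18 and 0, 4 and 12, and 3 and 3. Signal near background limits the dim genes.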

Other observations

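A further probe, named wu:fk51a02 in the array file, is listed in the gene table as an older name of her15.1 and lies outside the naming rule. It sits on danRer2 chromosome 11 at 37191162 to 37191221 on the minus strand, the same positions as the dim hes5 probe on the plus strand. Its signal was 7.12 and 6.36 on the progenitor arrays and 2.99 and 3.84 on the glia arrays, at background on all 4.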
